A study of Schizosaccharomyces pombe with 8 samples.

Results

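In fission yeast, Schizosaccharomyces pombe, 101 introns carried at least 0.5 times as many reads per base as the exons of their own gene already in wild-type cells. They were chosen among 3976 intron rows that overlap no gene row other than their host and whose host had at least 50 reads in each of 4 libraries, out of 5361 intron rows in all. The ratio divides wild-type intron reads per base by wild-type host reads per exonic base, with the reads of both wild-type libraries summed. The introns were thus chosen by their wild-type intron and host reads, and their high wild-type ratio is a description, not a result. The 101 introns lie in 88 genes and are compared with the 3875 other introns that met the same conditions.

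The study compared poly-A RNA of a wild-type strain with RNA of cwf10-ΔNTE, each as 2 libraries. Cwf10 is the fission yeast counterpart of Snu114, the GTPase of the spliceosome, and the mutant lacks residues 2 to 127, its N-terminal extension. The wild-type strain, OHI246, is h- with leu1-32, ura4-D18 and ade6-M210. The mutant strain, OHI408, is h- with leu1-32, ura4-D18 and an ade6 allele written as ade6-M21X, and both were grown in YE medium at 25 °C. Repeats of a strain were grown together and processed separately per the labels, so p-values cover the spread between these libraries only, and that spread may be technical.

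An intron is removed by the spliceosome in a pair of steps that use a sequence at its 5′ end, a branch point adenosine and the 3′ end. Fission yeast introns are short and usually recognised across the intron itself, and Snu114 is a core U5 particle protein that acts when the spliceosome is activated and taken apart. A read that joins the exons on both sides (an exon-exon read) comes from a spliced RNA. A read across an exon-intron border comes from an RNA that still holds the intron, and reads inside the intron come from unspliced RNA, an excised intron or any other RNA of that stretch.

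The sequences of introns that the results below turn on are shown first, from the RefSeq genome ASM294v3, 5′ to 3′ on the gene's strand. Capitals mark the first 6 bases, the last 3 bases and, where present, the last of 4 searched branch motifs, CTAAC or CTAAT and CTGAC or CTGAT, searched on the gene's strand only. Introns without any exon-exon read in wild type were spp41 intron 1 (chrII:3327047-3327093), SPBC409.08 intron 1 (chrII:1152174-1152215), SPBP8B7.31 intron 3 (chrII:3698920-3698972) and SPCC569.03 intron 1 (chrIII:2430777-2430839).
spp41 intron 1: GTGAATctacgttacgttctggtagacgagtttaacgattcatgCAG
SPBC409.08 intron 1: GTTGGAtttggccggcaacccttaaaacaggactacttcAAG
SPBP8B7.31 intron 3: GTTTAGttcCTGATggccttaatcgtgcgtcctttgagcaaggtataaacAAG
SPCC569.03 intron 1: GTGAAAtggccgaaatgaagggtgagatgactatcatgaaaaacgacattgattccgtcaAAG

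Introns with spliced reads in wild type and fewer in the mutant were etp1 intron 1 (chrI:5037447-5037491), arb2 introns 1 (chrI:2309213-2309258) and 4 (chrI:2309947-2309997), ckn1 intron 2 (chrII:768017-768079), mdm35 intron 1 (chrII:744108-744169), SPBC651.07 intron 2 (chrII:1248922-1248990) and met6 intron 1 (chrII:4089319-4089360).
etp1 intron 1: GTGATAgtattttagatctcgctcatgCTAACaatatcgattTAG
arb2 intron 1: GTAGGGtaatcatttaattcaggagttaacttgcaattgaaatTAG
arb2 intron 4: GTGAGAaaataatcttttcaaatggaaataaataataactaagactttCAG
ckn1 intron 2: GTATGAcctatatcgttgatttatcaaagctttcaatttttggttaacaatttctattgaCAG
mdm35 intron 1: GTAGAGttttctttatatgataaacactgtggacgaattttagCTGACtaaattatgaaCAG
SPBC651.07 intron 2: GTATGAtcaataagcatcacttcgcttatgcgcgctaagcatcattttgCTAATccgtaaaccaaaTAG
met6 intron 1: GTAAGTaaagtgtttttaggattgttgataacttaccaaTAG

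Introns on the 3′ untranslated side of the coding span are shown by their last 24 bases. They are rpl39 intron 1 (chrIII:1641181-1641242), which starts with GTATGT, mto2 intron 1 (chrII:496012-496128), which starts with GTAAGT, and vma9 intron 3 (chrII:501895-501934), which starts with GTTTGT.
rpl39 intron 1, last bases: gtaactgttttCTAACtgagaTAG
mto2 intron 1, last bases: ttaagaagttgCTAATcctacTAG
vma9 intron 3, last bases: tcttttattttacttatcgttTAG

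Introns with many intron reads but few exon-intron reads in wild type were rmt1 intron 6 (chrI:5016597-5016648), sbh1 intron 3 (chrII:3441222-3441271) and clr6 intron 11 (chrII:849855-849894).
rmt1 intron 6: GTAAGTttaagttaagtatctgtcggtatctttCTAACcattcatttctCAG
sbh1 intron 3: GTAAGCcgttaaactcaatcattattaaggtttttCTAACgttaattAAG
clr6 intron 11: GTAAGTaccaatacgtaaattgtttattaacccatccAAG

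Several of the selected rows were not ordinary introns in the reference annotation. Of the 101 rows, 8 were 1 or 2 bases long (in pof4, cwf22, SPAC23H3.04, new11, vps901, rmr1, SPBC337.02c and nvj2), against 10 of 1 to 4 bases among the 3875 others. The same intron stands in the reference annotation for 87 of 101, or 86.1%, against 98.1% of the others. There the annotation runs a coding exon through 7 of the 101, or 6.93%, and through 0.284% of the others, and rrp36 intron 3, pof4 intron 2 and nup189 intron 1 are the longer introns among the 7.

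The 93 rows over 4 bases were compared with 3865 others by their sequence. Their median length was 51.0 bases against 56.0, and their median GC content was 31.6% against 28.9%. Of the 93, 8.60% began with GTATGT and 14.0% with GTAAGT, against 20.7% and 27.3% of the others. Any start in GTA was found in 78.5% against 92.7%, and met6 intron 1 and mdm35 intron 1 belong to this group while spp41 intron 1 and vma9 intron 3 do not. The 3′ end was TAG in 52.7% against 69.5%, and AAG in 22.6% against 11.9%. CTAAC was the last branch motif in 25.8% against 43.9%, and CTGAC in 9.68% against 5.30%. None of the 4 motifs was found on the gene's strand in 38.7% against 23.5%, which says only that these letters are not in the intron. Where a motif was present, its adenosine lay a median of 11.0 bases from the 3′ end in both sets. The length was a multiple of 3 in 43.0% against 32.3%. Introns on the 3′ untranslated side made up 5.38% (sip1 intron 9, rpl39 intron 1, vma9 intron 3, osh41 intron 7 and mto2 intron 1) against 0.362%. These shares are descriptions, and no test of the difference was run.

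Introns of single-intron genes made up 33.7% of the 101 against 20.7% of the others. Of the 88 hosts, 10 held at least 2 selected introns, 23 introns in all, which share their host's RNA. The 88 hosts held 151 other introns that met the same conditions. These had a median density ratio of 0.149 in wild type, against 0.0945 over all 3875 others, and both sets lie under 0.5 by the choice. In trt1, which encodes telomerase reverse transcriptase, introns 3 and 13 had ratios of 0.926 and 0.652, while the ratios of its other 13 introns ran from 0.124 to 0.471. By gene list, 2 of 25 introns of meiotic genes were selected (in mek1, a meiotic kinase, and rec8, the meiotic cohesin), 1 of 73 of ribosomal proteins (rpl39), 2 of 110 of the spliceosome (the 2-base row of cwf22 and prp10 intron 2), 0 of 51 of mitochondrial respiration, 0 of 16 of tubulin and microtubule genes and 1 of 2 in non-coding hosts (snoR61). Over all genes the share was 2.54%. Genes whose symbol begins with mug or meu, for meiotic upregulation, held 7 of the 101 introns among 37, a grouping chosen after the list was seen. Their summed wild-type intron reads ran from 5 in meu32 intron 1 to 166 in mug184 intron 2, and mek1 intron 2 had 6.

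The border reads did not match a label of poor splicing for all of these introns. Exon-exon reads were at least as many as exon-intron reads in wild type for 39 of the 93 longer introns, fewer for 35, and 0 for 19. Among the 3875 others 90.6% fell in the first class, 5.65% in the second and 3.51% in the third. An unspliced intron has 2 exon-intron borders and a spliced RNA 1 junction, so equal numbers do not mean equal amounts of spliced and unspliced RNA. How border reads were counted is not given in the sources used here. In the text below the 101 are called introns of high wild-type read density.

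**Figure D1:**
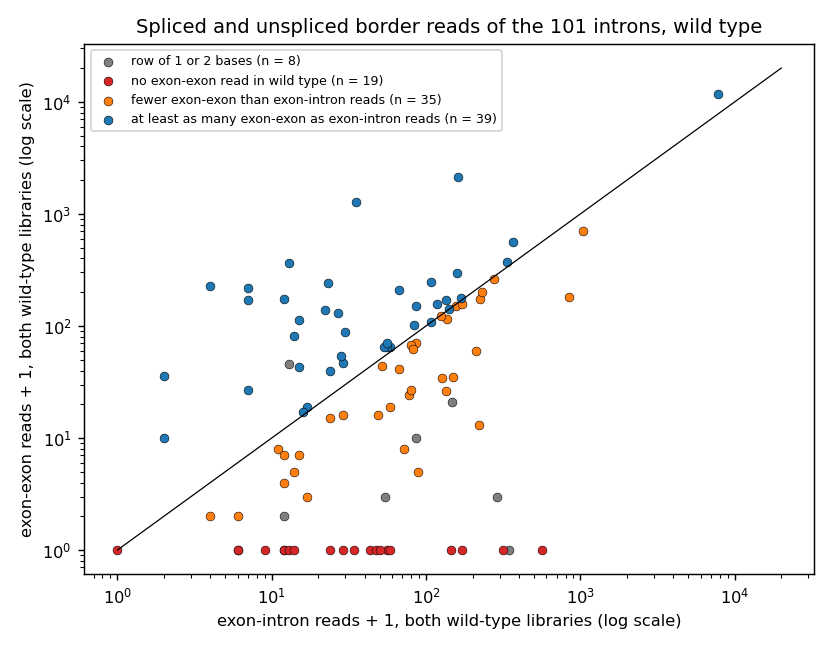
Exon-exon reads (vertical axis) against exon-intron reads (horizontal axis) of the 101 introns, each plus 1 and summed over both wild-type libraries, on log scales, with 1 point per intron coloured by class. The 19 longer introns without an exon-exon read lie on the floor of the plot, as do the rows of 1 or 2 bases in new11 and SPBC337.02c. The 39 longer introns with at least as many exon-exon as exon-intron reads lie on or above the line of equal numbers. The point at the upper right is rpl39 intron 1.

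In the group of 19 without wild-type exon-exon reads, the density ratio, the value the introns were chosen by, ran from 0.505 in spx2 intron 5 to 2.74 in SPAC1F12.03c, with a median of 1.35 in wild type and 1.27 in the mutant. In the mutant spx2 intron 5 was at 0.405. For spp41 intron 1 (SPBC17D1.01), exon-intron reads were 295 and 270 in the wild-type libraries against 274 and 277 in the mutant ones, with 0 exon-exon reads in each library. Zero of 565 wild-type border reads allows an exon-exon share of up to 0.531%, and the mutant's up to 0.544%, counting error only. SPBC409.08 intron 1 had 153 and 161 exon-intron reads against 235 and 302 in the mutant, and 0 exon-exon reads. Under the same condition this allows up to 0.955% in wild type. These libraries overlap in intron reads per 1000 host reads for spp41, at 18.9 and 23.0 in wild type against 20.4 and 19.5 in the mutant. SPBP8B7.31 intron 3 had 83 and 88 exon-intron reads against 77 and 78, and SPCC569.03 intron 1 had 25 and 32 against 42 and 35, both without exon-exon reads. All 4 introns of SPBC1348.12 were in this group, with 8 to 54 summed intron reads in wild type. In rec8 intron 4 the mutant gave the single exon-exon read of the whole group, and 13 of the 19 stand in the reference annotation as the same intron. The 19 held 7 introns with any of the 4 branch motifs and 1 that begins with GTATGT, in rsn1. For xlf1 intron 2 no border read of either kind was counted in any library, so its border reads say nothing of its splicing, and ppt1 intron 1 had 11 exon-intron reads beside 194 intron reads in wild type. Read counts of wtf12, a member of the repeated wtf family, may be shared with near-identical copies and are uncertain.

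The highest wild-type ratios at 50 or more summed intron reads were not limited to introns without exon-exon reads. SPAC1F12.03c, with 2.74, had 1971 and 2303 intron reads per 1000 host reads in wild type against 2037 and 2231. Its intron row thus held more reads than its host row in every library, and this host is not in the reference annotation. SPBC1711.15c, on the 5′ untranslated side, had a ratio of 1.46 and 61 and 69 exon-exon reads beside 15 and 11 exon-intron reads. SPCC13B11.03c intron 1 (1.47) and fmd3 intron 1 (1.59), by contrast, had 4 summed wild-type exon-exon reads each, and fmd3 had 39 and 49 exon-intron reads.

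Exon-exon reads were not used to choose the introns, and their change between strains was tested at each intron. They are not independent of the choice, since they share host reads as the denominator. A high intron share also leaves a lower spliced share, from which an equal loss is a larger log2 fall. The comparison with other introns is thus a description. Exon-exon reads per host read fell in the mutant at 29 of 71 tested introns and rose at 1, with 30 introns under the minimum of 10 summed reads and left untested (edgeR quasi-likelihood test, Benjamini-Hochberg adjusted p under 0.05). Over all 4861 introns tested, 19.8% fell and 0.658% rose. The share of the tested high-density introns that fell was 40.8%, and their median log2 change was -0.70, against -0.15 over all introns tested. At 50 of the 71, each mutant library had a lower value than each wild-type library, and at 3 a higher value; over all introns tested 51.1% were lower in this way. The difference between the sets was not tested.

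The introns with the lowest values came from small counts. In ckn1 intron 2, whose gene is the counterpart of a human transcription-coupled repair factor, the wild-type libraries held 12 and 11 exon-exon reads and the mutant libraries 0 and 0. With a limit of 3 reads over both mutant libraries, this is at least 5.63-fold lower per host read, from 11.6 per 1000 host reads to under 2.06 (edgeR quasi-likelihood, adjusted p = 2.15e-04). Introns 3 and 4 of the same gene fell from 19 and 21 reads to 1 and 6, and from 11 and 15 to 2 and 4. The call of intron 3 ended without either wild-type replicate or mutant replicate 1, and that of intron 4 without any 1 of the 4 libraries. For mpn1 intron 3, in the gene of a U6 RNA exonuclease, reads numbered 12 and 6 against 1 and 2, a log2 change of -2.76 ± 0.78 (SE), and its call ended without wild-type replicate 1 or mutant replicate 1.

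Introns with more reads fell too. In etp1 intron 1, exon-exon reads were 80 and 102 against 18 and 18, a change of -2.26 ± 0.23 (log2, SE; adjusted p = 1.10e-12 by edgeR's quasi-likelihood test with Benjamini-Hochberg adjustment). Its exon-intron reads, 419 and 426 against 390 and 430, overlapped between strains. In mto2 intron 1, whose protein anchors the gamma-tubulin complex, exon-exon reads were 62 and 52 against 7 and 11, a log2 change of -2.38 ± 0.31. The groups did not overlap in either intron. In vma9 intron 3, in a gene for a subunit of the vacuolar proton pump, exon-exon reads were 105 and 93 against 25 and 22, a change of -2.25 ± 0.21. In arb2, which encodes a partner of Argonaute, introns 1 and 4 had 26 and 20 against 3 and 7, and 30 and 34 against 8 and 9. Its introns 2, 3 and 5 had 29 and 37, 42 and 32, and 25 and 29 wild-type exon-exon reads, and 22 and 20, 38 and 36, and 25 and 37 mutant ones, so the selected pair of introns held the lowest mutant counts of the gene.

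The introns of rad55, mdm35, snoR61, SPBC651.07 and met6 had wild-type exon-exon reads of at least 30 in each library. Reads in rad55 intron 1, in a recombination gene, fell from 34 and 30 to 6 and 12. Those of mdm35 intron 1, in a gene for a mitochondrial intermembrane space protein, fell from 286 and 274 to 57 and 73, a log2 change of -1.66 ± 0.13. The intron of the snoR61 host RNA went from 123 and 125 to 42 and 44, and SPBC651.07 intron 2 from 110 and 153 to 44 and 52. In met6, which encodes a methionine biosynthesis enzyme, intron 1 fell from 347 and 361 to 110 and 126 (log2 change -1.25 ± 0.10). No library of one strain reached the other strain's range in these 5. Calls at 12 of the 29 were kept under all 8 alternatives tried, and these are the introns of rpl39, met6, mdm35, etp1, vma9, snoR61, mto2, SPBC651.07 and rad55, both of arb2, and ckn1 intron 2. DESeq2 called these 12 and no other of the 71.

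The other 15 junction falls not yet named were in SPAC222.18, SPAC18B11.09c, sfc9, cwp1, sua7, uap2, ngl1, trt1 intron 3, mus81, ago1, mtl16, rbm10, mmp1 and SPCC132.03, together with rpl39. Of these ago1 encodes Argonaute, mus81 a nuclease of recombination intermediates, sua7 the initiation factor TFIIB and sfc9 a subunit of TFIIIC. Each of them except rpl39 lost its call under at least 1 alternative. Leaving out wild-type replicate 1, which left 17 of 29 falls, ended those of cwp1, uap2, ago1, mus81, mtl16, mmp1, rbm10, trt1 and SPCC132.03, with ckn1 introns 3 and 4 and mpn1 named above. Leaving out wild-type replicate 2 ended those of ngl1, sua7, sfc9, SPAC18B11.09c, mtl16, mus81, rbm10 and mmp1, mutant replicate 1 those of SPAC18B11.09c, ago1, SPCC132.03, rbm10 and mmp1, and mutant replicate 2 those of mtl16, mus81, trt1, uap2, rbm10 and SPCC132.03.

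The single rise was in mxr1 intron 1, in the gene of methionine sulfoxide reductase. Its exon-exon reads were 84 and 88 against 113 and 129, a change of 0.40 ± 0.14 (log2, SE; adjusted p = 0.0380 by edgeR's quasi-likelihood test). Its intron reads per 1000 host reads, 19.0 and 24.9 against 18.9 and 24.7, covered the same range in both strains. Leaving out any 1 library ended this call.

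**Figure D2:**
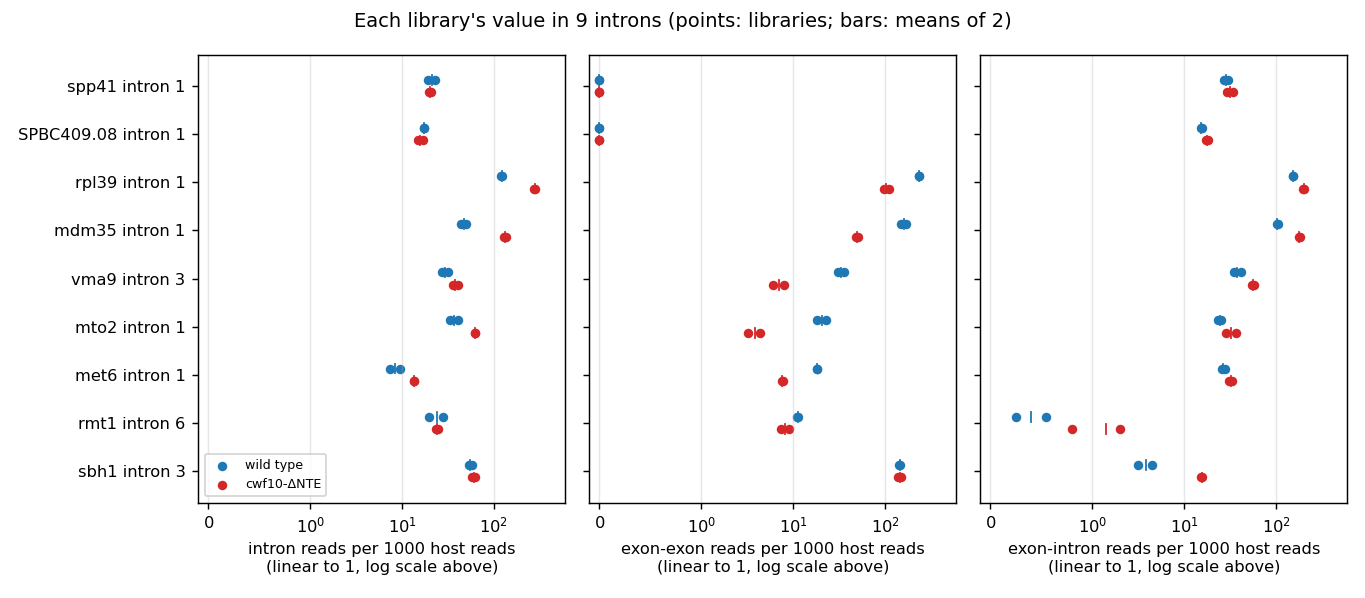
Intron, exon-exon and exon-intron reads per 1000 host reads (horizontal axes, linear to 1 and log above) in 9 of the 101 introns (rows), with 1 point per library and a bar at each strain's mean of 2. Exon-exon reads are lower in both mutant libraries for rpl39, mdm35, vma9, mto2 and met6, and 0 in all libraries for spp41 and SPBC409.08.

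The fall was also compared at similar depth, since introns with few exon-exon reads vary more. With 5 to 49 wild-type exon-exon reads, 32.0% of the high-density introns fell (8 of 25), against 13.2% of the others. With 50 to 199 reads it was 43.3% (13 of 30) against 18.3%, and with 200 or more 57.1% (8 of 14) against 19.3%. The median log2 changes were -1.14 against -0.42, -0.54 against -0.23 and -0.47 against -0.11 in the same order. In each range the high-density introns had the higher share called lower, which is a description, since the choice bears on the spliced share at any depth.

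**Figure D3:**
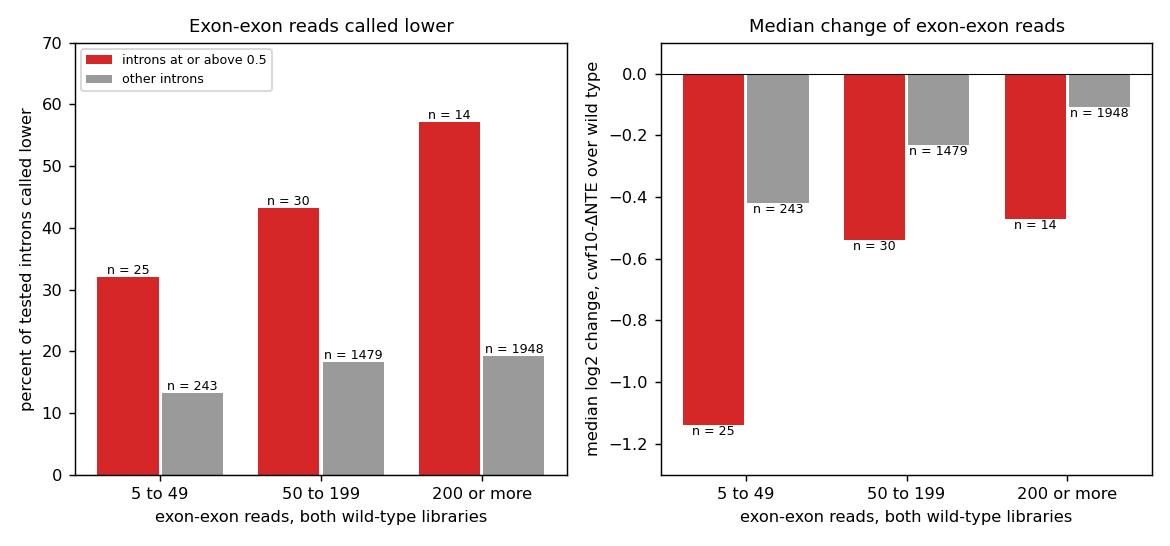
Percent of tested introns with exon-exon reads called lower in the mutant (left) and median log2 change (right), by the wild-type exon-exon reads of the intron (horizontal axis), for the high-density introns and the other introns, with the number tested at each bar. Shares were 32.0%, 43.3% and 57.1% for the high-density introns and 13.2%, 18.3% and 19.3% for the others.

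By class, 16 of 39 introns with at least as many exon-exon as exon-intron reads in wild type fell. In the same class, 18.4% of the other introns tested fell. With fewer exon-exon than exon-intron reads, 13 of 29 tested fell, against 19.4% of the others tested. Summed over the first class, exon-exon reads came to 20379 for wild type and 10466 for the mutant, of which rpl39 alone held 5831 and 5991, then 2063 and 2138. Over the second class they went from 2660 to 1262. More exon-exon than exon-intron reads were counted at 40 of the 101 in wild type and at 20 in the mutant. For the others these shares were 90.3% and 79.8%.

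Intron reads were compared in the same way. Because wild-type intron reads chose the introns, a high chance count in wild type would lower the change, and the counts are given as a description. Of 96 tested, 25 rose and 1 fell in intron reads per host read (edgeR quasi-likelihood, adjusted p under 0.05), where 47.1% of all 5038 introns tested rose and 0.298% fell. The rises numbered 12 with DESeq2 and 16 when either mutant library was left out. The median log2 change was 0.16, against 0.81 over all introns. The median density ratio went from 0.694 in wild type to 0.952 in the mutant, and in the others from 0.0945 to 0.182. In the mutant 93 of the 101 were still at or above 0.5, joined by 318 of the others. The 0.5 limit was met in each wild-type library by 72 of the 101, and 28 had a ratio of at least 1.

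**Figure D4:**
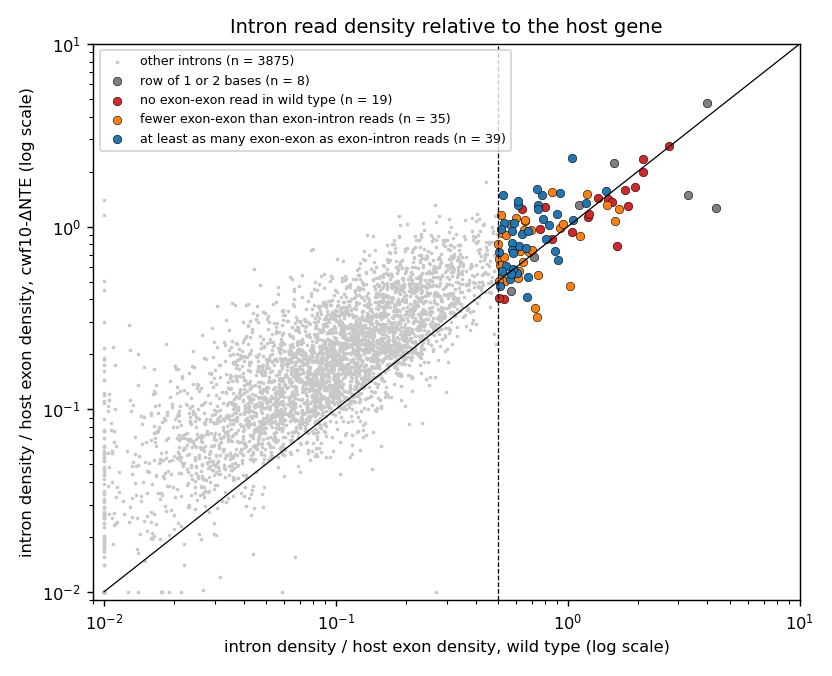
Ratio of intron read density to host exon read density in the mutant (vertical axis) against wild type (horizontal axis), both on log scales with values under 0.01 drawn at 0.01, for 3976 introns with 1 point each. The dashed line is the limit of 0.5 that chose the 101 introns, and 93 of them stay at or above 0.5 in the mutant.

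Several introns with high changes also had fewer exon-exon reads. In mdm35 intron 1, the wild-type libraries had 49.2 and 44.2 intron reads per 1000 host reads and the mutant libraries 135 and 130, a log2 change of 1.50 ± 0.14 (SE). In rpl39 intron 1, in the gene of a ribosomal protein of the large subunit, they were 120 and 123 against 280 and 274, a change of 1.19 ± 0.040, and exon-exon reads changed by -1.18 ± 0.039. In SPAC222.18 they were 63.6 and 65.1 against 151 and 139 (1.17 ± 0.16). No values overlapped between strains in these 3. Changes of 0.93 in the snoR61 host, 0.91 in mus81 and 0.82 in ago1 (78.0 and 70.5 against 122 and 140) came with junction falls of -1.66, -1.45 and -1.19. Apart from those of mtl16, arb2 and SPAC18B11.09c, given below, the other introns called higher changed by 0.32 in osh41 to 0.97 in ppt2. They were those of ppt2, mto2, met6, uap2, mmp1, sfc9, SPBC651.07, cwp1, sua7, vma9, prp10, nxt2 and osh41 and both of trt1. Of these, prp10 intron 2 lies in the gene of an SF3b subunit that binds the branch region. Its intron reads per 1000 host reads were 8.51 and 10.3 against 13.8 and 13.1. Only 1 summed exon-intron read was counted there in wild type and 3 in the mutant. Its exon-exon reads, 15 and 20 against 17 and 31, did not pass the test. Junctions of nxt2 and osh41 did not pass it either, each with a log2 change of 0.04. In mtl16 intron 6 (24.8 and 20.1 against 34.2 and 65.5) the mutant libraries differed, and the call of 1.16 ended without mutant replicate 2. The call of arb2 intron 1, 0.95, ended without wild-type replicate 1 and without mutant replicate 1, and arb2 intron 4 changed by 1.13. The call of ppt2 ended with gene library sizes in place of host reads, and those of mtl16 and both arb2 introns ended with DESeq2. In SPAC18B11.09c, whose host fell by 1.33 on the log2 scale, intron reads per host read rose by 0.87, but with gene library sizes in place of host reads the change was -0.46. Both measures could be tested in 69 introns, and in 20 of them intron reads rose while exon-exon reads fell. The share of all introns with both calls was not counted, so this number is a description only.

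None of the 19 introns without wild-type exon-exon reads changed in intron reads at an adjusted p under 0.05, and their median log2 change was -0.08, with a range from -1.01 to 0.98. Of the other introns without wild-type exon-exon reads, 35 of 96 tested, 36.5%, rose, and the difference between the sets was not tested. In spp41 intron 1 the log2 change was -0.07 ± 0.12, with 420 summed wild-type reads and 349 mutant ones, and in SPBC409.08 intron 1 it was -0.12 ± 0.11, with 351 and 480. The single fall among the 101 was in sip1 intron 9, on the 3′ untranslated side, where wild type had 18.1 and 19.5 intron reads per 1000 host reads against 16.4 and 12.4, a change of -0.41 ± 0.13 (edgeR quasi-likelihood adjusted p = 0.0152). Leaving out wild-type replicate 2 or mutant replicate 2 ended it.

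**Figure D5:**
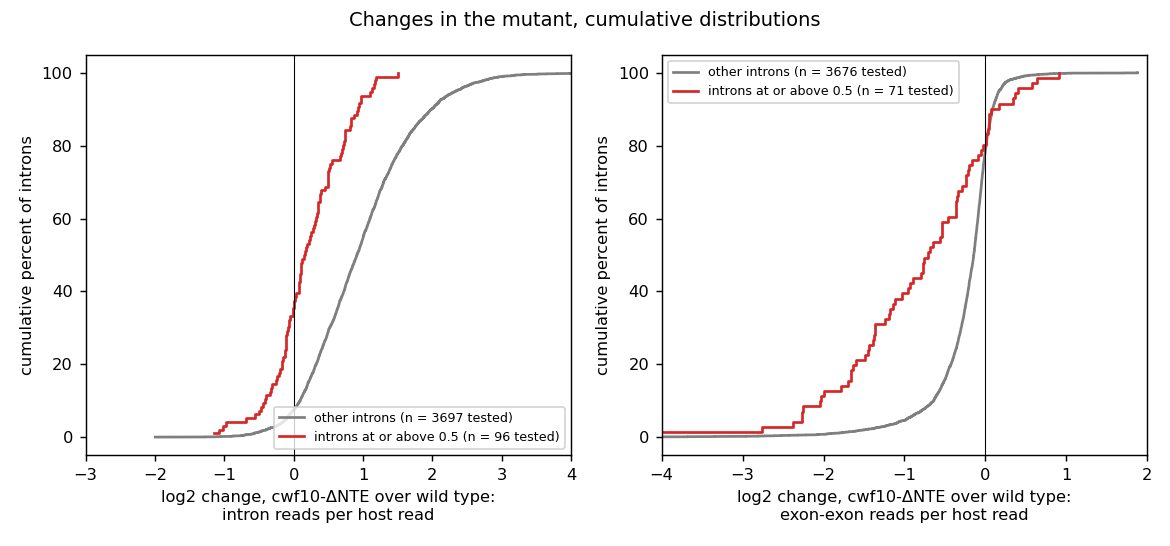
Cumulative percent of introns (vertical axis) by log2 change in the mutant (horizontal axis), for intron reads per host read (left) and exon-exon reads per host read (right), in the high-density introns and the other introns. The median of the high-density introns is 0.16 on the left and -0.70 on the right; the change of ckn1 intron 2, -6.34, lies outside the right panel.

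Exon-intron reads may also be counted among intron reads, so they are not independent of the choice. They rose at 25 of 97 tested and fell at 0, where 30.1% of all introns rose and 0.637% fell (edgeR quasi-likelihood, adjusted p under 0.05). The rises numbered 5 with DESeq2, 16 without mutant replicate 1 and 12 without mutant replicate 2. In the group of 19 without wild-type exon-exon reads, 1 of 18 tested rose (tgp1 intron 1, 27 and 22 against 56 and 75 reads).

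For 19 of the 101, wild-type exon-intron reads came to under 0.2 per intron read, where the median was 0.973 over the 101, and 10 of these 19 are at most 100 bases long. In sbh1 intron 3, in the gene of the Sec61 beta subunit, 14 and 20 exon-intron reads stood beside 641 and 636 exon-exon reads and 492 summed intron reads. Its exon-intron reads rose to 50 and 60 in the mutant (log2 change per host read 2.01, edgeR quasi-likelihood adjusted p = 5.46e-12), while its intron reads per 1000 host reads were 57.1 and 53.7 against 57.9 and 62.3. In rmt1 intron 6, in an arginine methyltransferase gene, 4 and 2 exon-intron reads stood beside 81 and 89 exon-exon reads, and became 4 and 12. In clr6 intron 11, in a histone deacetylase gene, 2 and 4 stood beside 113 and 105. Of the 10 short introns, 8 had more exon-exon than exon-intron reads in wild type, 5 of 9 tested rose in exon-intron reads and 2 rose in intron reads. These introns were picked for few wild-type exon-intron reads beside many intron reads, which favours such a split, so the counts are a description and support nothing. What gave the intron reads there was not tested. The reference annotation places a gene on the other strand over 45.5% of the 101 introns and 50.2% of the others, genes that the overlap condition did not use. Whether the counting kept strands apart is not given in the sources used here, so reads of such a gene cannot be told apart from those of the intron.

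The hosts as genes moved in both directions. Host reads entered the choice as the denominator, and all 88 hosts were tested: 40 were higher and 27 lower in the mutant (edgeR quasi-likelihood, adjusted p under 0.05), where 39.6% of all genes tested were higher and 38.5% lower. The median log2 change of the hosts was 0.07, against 0.01 over all genes tested. Of the hosts, 3 were called at least 2-fold higher and 1 at least 2-fold lower. The share of all genes past the 2-fold limit was not counted. SPCC13B11.03c was the highest, with a change of 2.15, followed by dli1 (1.09) and mug126 (1.01), and SPAC18B11.09c the lowest (-1.33), followed by pth1 (-0.70) and rmr1 (-0.66). Hosts of introns whose junctions fell went in both directions, with mdm35 at -0.44, met6 at -0.33, sua7 at 0.52 and etp1 at -0.06.

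The authors' deposited table gives its own splicing efficiency with a q-value. Of the 101 introns, 40 in the authors' deposited table, 39.6%, had lower efficiency in the mutant at q under 0.05, against 35.8% of all 5361.

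The choice has a threshold, and the introns nearest to it on each side have like wild-type ratios by the way they were picked. Just above it were met6 intron 1 (0.503), spx2 intron 5 and SPCC132.03 intron 1 (both 0.505), prp10 intron 2 (0.506) and ypa1 intron 1 (0.507). Just below it were mug8 intron 1 (0.5 after rounding), ptl1 intron 1 (0.496), lea1 intron 1 (0.492), new20 intron 1 (0.490) and lig4 intron 7 (0.488). The mutant ratios of those below differed, from 0.227 in lig4 to 0.915 in ptl1.

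Over the whole series, reads on gene rows came to 36186264 to 42802817 per library and on intron rows to 174618 to 296204, of which the 101 introns held 4.79% to 5.08%. The labels were checked on cwf10 itself, whose intron 1 had 98 and 85 wild-type exon-exon reads and 0 in both mutant libraries, while intron 3 had 82 and 98 against 84 and 99. Wild-type intron reads of the 101 ranged from 2 to 6183 with a median of 58.0, so the depth limits most single introns.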

How the data were processed

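Poly-A RNA was sequenced as 2 wild-type and 2 cwf10-ΔNTE libraries from a stranded kit, and the first reads were analysed, per the labels. The second reads were not used here. Per the submitters' processing notes the tools were CASAVA 1.8.2 and Bowtie 0.12.7, with no roles stated. Genome build, annotation release and the way reads were counted were not given in the sources used here, but chromosome I has the length of the reference ASM294v3, 5579133 bases, and 5287 of 5361 deposited introns have GT and AG ends there. Symbols matched 6844 of 7022 gene rows.

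The authors deposited raw read counts per gene and intron row, exon-intron read counts, row lengths, a log2 splicing efficiency and its q-value, per the file headers. That log2 value is the ratio of exon-exon to exon-intron reads, with 1 added to each, so the exon-exon counts could be recovered from it, whole within 0.001.

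Tests used edgeR 4.0.16 (quasi-likelihood, R 4.3.3) with Benjamini-Hochberg adjustment over all features of the table and a threshold of 0.05. Intron, exon-exon and exon-intron reads had the log of host reads plus 1 as offset, where the summed reads reached 10 and the host had 50 or more in every library. Genes were scaled by TMM. A standard error is the log2 change over the root of the F value. Simulated data were drawn at the observed depth with a set dispersion of 0.002. Per measure 100 rows were changed 1.5-fold and 100 rows 2-fold. Recovery of the 2-fold changes was 38% for intron reads (5038 introns) and 87% for exon-exon reads (4861). It was 66% for exon-intron reads (5021) and 98% for genes (6536). A far larger share of introns and genes was called in the measured data, so recovery there may differ. Counts vary by counting error at least, and limits for a count of 0 use 3 reads.

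The introns, lists and tests were chosen with earlier results of these data known. Named introns are the 10 with the highest wild-type ratio at 50 or more reads, the 5 on each side of 0.5, the 10 highest and up to 5 lowest called changes in intron reads, the 5 with most and fewest exon-exon reads, up to 3 per list, those that share a host, and up to 5 highest and lowest called junctions and hosts. Other introns named for low exon-intron reads, for late calls or as class examples were chosen after their values were seen. Alternatives were the replicate block, leaving out each library, DESeq2 1.42.0, no filter on low counts, other scalings and other limits of the choice.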

Additional observations from a re-analysis of the deposited data

How the results depend on the processing

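Rises in intron reads numbered 25, 12 with DESeq2 and 16 to 24 without 1 library. Falls in intron reads, 1 in all, became 0 with DESeq2, 3 with gene library sizes and TMM in place of host reads, and 0 to 1 without 1 library. Falls in exon-exon reads numbered 29, 12 with DESeq2 and 17 to 23 without 1 library. Rises in exon-exon reads, 1 in all, became 0 with DESeq2, 4 with gene library sizes and 0 without any 1 library. Rises in exon-intron reads numbered 25, 5 with DESeq2 and 12 to 18 without 1 library. The median change in intron reads, 0.16, was 0.33 with gene library sizes and 0.11 to 0.23 without 1 library, and the median junction change stayed between -0.78 and -0.66. With gene library sizes the change of SPAC18B11.09c intron 1 in intron reads became -0.46. A limit of 0.25 or 1 in place of 0.5 chose 475 or 28 introns. Host calls stayed within 1.5 times, and no filter, or the omission of rows of 1 or 2 bases (chosen after seeing the data), left the other counts within that too. The cause of these shifts was not tested.

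Replicate numbers name the libraries and are not stated to pair them. Deviations of same-numbered libraries correlated at -0.0147 over 6322 genes. With the replicate block, 26 introns rose and 28 junctions fell. Over 51 single results, 75 refits lost the threshold and 1 changed sign. Replicates differed beyond counting noise. Single introns with few reads are limited by depth.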
